A study of Mus musculus with 24 samples.

Results

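The comparison is between hippocampal microglia of APP/PS1 mice and of control mice at 6 months of age. It takes the 8 libraries that carry this age in their labels, out of 24 in the series, with 4 libraries from transgenic mice (tg) and 4 from controls (wt). The mice were male, and tg animals carried both transgenes of the APP/PS1 line, of which one is APPswe. In this mouse line a prion protein promoter, known to be active mainly in neurons of the brain, drives both transgenes, so the microglia are cells of a brain that makes the transgene products. The controls were labelled wt with no further allele or strain. Cells of both groups were sorted by flow cytometry as propidium iodide-negative, DRAQ5-positive, CD11b-high, CD45-intermediate and CD49d-negative, and their RNA was sequenced in bulk. Nothing in the labels ties a replicate to its own animal, and a p-value here sets a difference against the spread among libraries, which may be technical. The series also holds libraries at 4 and 9 months, which are used here to place the 6-month values.

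Microglia are the resident macrophages of the brain. Near amyloid plaques they are known to leave a homeostatic state, marked by genes such as P2ry12 and Tmem119, for a state called disease-associated microglia (DAM). Its early stage, with Apoe and Tyrobp, is described as independent of the lipid-sensing receptor TREM2, and its late stage, with Cst7, Clec7a, Lpl and Itgax, as dependent on it.

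The 8 libraries held 8147240 to 11041219 counts, and 14129 to 17644 gene symbols had at least 1 count. Levels are in CPM, which sets a gene's counts against the depth of its library after TMM normalisation. Genes with at least 1 CPM in at least 4 of the 8 libraries were tested, which were 12998. Library wt replicate 3 stood apart: it was at 129.3 on the first principal component of log2 CPM, with the other 7 libraries at −33.8 to −5.65. It also had the fewest symbols detected, and 1023 of the tested genes had 0 counts in it, against 61 to 438 in the others. The biological coefficient of variation was 59.0% with it and 53.0% without it, and the log2 fold changes printed for single genes at 6 months are also given without it.

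The sorted cells carried the markers of microglia. The summed level of 8 microglia markers, among them P2ry12, Tmem119, Cx3cr1 and Csf1r, was 63644 to 79952 CPM in wt and 51510 to 82487 CPM in tg. The APPswe transgene could not be checked in these cells: App, which encodes the amyloid precursor protein, was at 103, 84.3, 280 and 103 CPM in wt and at 155, 139, 202 and 101 CPM in tg, and the groups overlapped. Its log2 fold change was 0.06 (SE 0.35, adjusted p = 1) with all libraries and 0.62 without wt replicate 3.

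Did any gene differ between tg and wt? Cst7 (ENSMUSG00000068129) was the single gene that passed the test, and it rose in tg. It encodes cystatin F, an inhibitor of lysosomal cysteine proteases. Its level was 14.4, 12.7, 13.9 and 12.6 CPM in wt replicates 1 to 4 and 199, 133, 181 and 180 CPM in tg replicates 1 to 4. The wt libraries lay close together and every tg library was far above them. The means were 13.4 ± 0.913 and 173 ± 28.3 CPM (SD, n = 4 each), a 12.9-fold difference. The log2 fold change was 3.69 (SE 0.23, adjusted p = 2.4e-05, edgeR quasi-likelihood test with Benjamini-Hochberg adjustment). Without wt replicate 3 it was 3.70 (SE 0.26, adjusted p = 0.000279). In bulk RNA, a larger share of cells that express the gene and more RNA per cell cannot be told apart. One call among 12998 genes is 0.00769% of those tested. The next smallest adjusted p was 0.212, and 645 genes had an unadjusted p under 0.05, 333 of them higher in tg (2.56%) and 312 lower (2.4%). Over all tested genes, 6442 (49.6%) had a higher level in tg. In 194 genes every tg library was above every wt library (1.49%), and in 155 every tg library was below (1.19%).

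The call of Cst7 was made in 21 of 22 alternative fits, with log2 fold changes of 3.62 to 3.80. The exception was the fit of all 24 libraries, where its adjusted p was 0.0506 (range over the alternatives 2.79e-74 to 0.0506) and the single call was Star, a cholesterol transport gene at 0 to 1.24 CPM in wt and 1.53 to 15.6 CPM in tg. That fit takes in a 9-month tg library of only 6325 counts. Star was chosen after its values were seen, and it passed the filter through its tg libraries. A different tool gave longer lists. DESeq2 called 19 of the same 12998 genes (0.146%, with 571 at an unadjusted p under 0.05 and 32 without an adjusted p), 12 higher in tg and 7 lower, and without wt replicate 3 it called 39 (0.305%), 27 higher and 12 lower. limma-voom with sample quality weights called 1, Cst7.

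**Figure D1:**
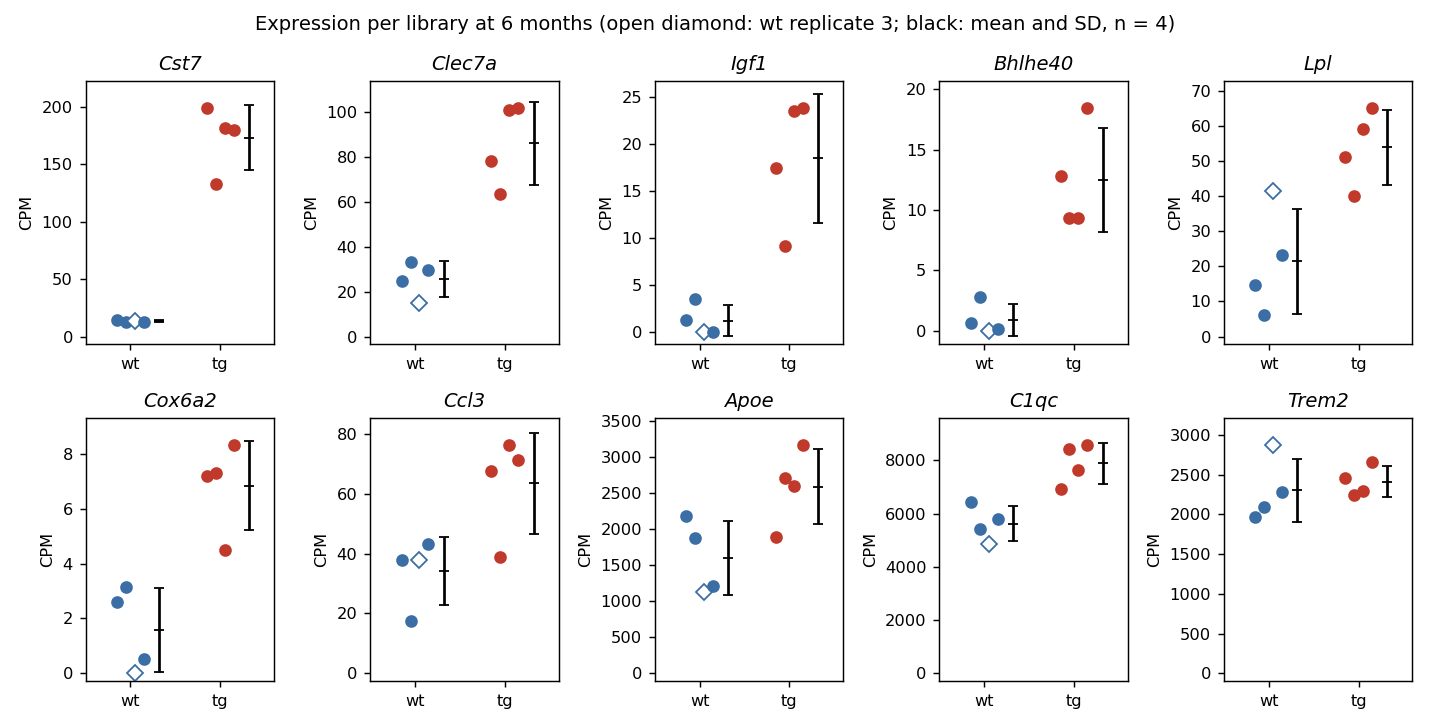
Level of 10 genes in each library at 6 months in CPM (vertical axes, each starting at or below 0), with wt in blue, tg in red, wt replicate 3 as an open diamond, and mean and SD in black. Cst7 lies between 12.6 and 14.4 CPM in wt and between 133 and 199 CPM in tg, while the Trem2 groups overlap.

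Beyond Cst7, the late DAM genes with the smallest p were Clec7a, Igf1 and Bhlhe40, none of which passed the edgeR test. Clec7a (ENSMUSG00000079293) encodes Dectin-1, a phagocytic receptor. It was at 24.6, 33.4, 14.8 and 29.7 CPM in wt and at 78.2, 63.4, 101 and 102 CPM in tg, and the groups did not overlap. Its log2 fold change was 1.74 (SE 0.28, adjusted p = 0.212) with all libraries and 1.55 (SE 0.26, adjusted p = 0.716) without wt replicate 3. DESeq2 called it with and without that library, at adjusted p = 3.41e-05 and 9.71e-06, and its adjusted p in 22 alternatives lay between 9.71e-06 and 1. Igf1, which encodes a growth factor for neurons and myelinating cells, was at 1.25, 3.51, 0 and 0 CPM in wt and at 17.5, 9.13, 23.5 and 23.9 CPM in tg (log2 fold change 3.95, SE 0.74, adjusted p = 0.212, and 3.53 and 0.716 without wt replicate 3). All 4 wt libraries lay below the lowest tg library, and 2 of them held no count. The transcriptional repressor gene Bhlhe40 was at 0.623, 2.83, 0 and 0.108 CPM in wt and at 12.8, 9.31, 9.37 and 18.5 CPM in tg (3.81, SE 0.75, adjusted p = 0.212, and 3.40 and 0.716 without wt replicate 3). Igf1 and Bhlhe40 passed the filter on low counts through their tg libraries. DESeq2 called both after wt replicate 3 was left out, at adjusted p = 0.0257 for Igf1 and 0.0263 for Bhlhe40, and over 22 alternatives the adjusted p reached 1 for each.

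In the order of their roles, the other late DAM genes include enzymes, secreted factors and receptors. Lpl encodes lipoprotein lipase, which frees fatty acids from lipoproteins. It was at 14.8, 6.22, 41.5 and 23.3 CPM in wt and at 51.3, 40.1, 59.3 and 65.1 CPM in tg. The wt library at 41.5 CPM, wt replicate 3, was the only one inside the tg range. The log2 fold change of Lpl was 1.32 (SE 0.40, adjusted p = 0.859), and without that library it was 1.85 (SE 0.37, adjusted p = 0.716). DESeq2 called Lpl only without it, at adjusted p = 0.00764, with 1 as the highest of the alternatives. Cox6a2, a subunit gene of cytochrome c oxidase known mainly from muscle, was at 2.6, 3.17, 0 and 0.538 CPM in wt and at 7.21, 7.32, 4.52 and 8.33 CPM in tg. It did not overlap between the groups (log2 fold change 2.12, SE 0.68, adjusted p = 0.859, and 1.71 and 0.860 without wt replicate 3), and it too passed the filter through its tg libraries. The secreted matrix protein gene Spp1 was at 4.68, 14.4, 4.66 and 9.89 CPM in wt and at 25.9, 5.7, 42 and 26.5 CPM in tg, where tg replicate 2 lay within the wt range. Itgax, which encodes CD11c, was at 12.3, 1.13, 5.74 and 2.37 CPM in wt and at 6.88, 7.59, 19.8 and 37.9 CPM in tg, and these groups overlapped as well. Ank, a phosphate transport gene, was at 7.42 to 34.9 CPM in wt and 34.9 to 57.6 CPM in tg.

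As a group, 21 of the 28 tested DAM stage 2 genes had a higher level in tg and 7 a lower one, with a median log2 fold change of 0.38, where the median of all tested genes was −0.00. Of these 28, 1 was called, where 0.00769% of all tested genes were. An unadjusted p under 0.05 with a higher level in tg was found for 11, against 2.56% of all genes, and none had one with a lower level. In every tg library 6 lay above wt, against 1.49% of all genes: Cst7, Clec7a, Igf1, Bhlhe40, Cox6a2 and Ccl4. Without wt replicate 3, 26 were higher and 2 lower, with a median of 0.36, and 50.6% of all genes were higher. Without tg replicate 4 the median was 0.16. Of the 25 members that reached 1 CPM in all 4 wt libraries, 3 did not overlap (Cst7, Clec7a and Ccl4), and the median was 0.34. Of all 10364 genes under that restriction, 139 lay above wt in every tg library (1.34%). The list has 32 genes, and Gpnmb, Fabp5, Dkk2 and Mamdc2 were not tested, with at most 3.71 CPM in a library. The list was written with earlier results of these libraries known, so its direction is not independent evidence.

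**Figure D2:**
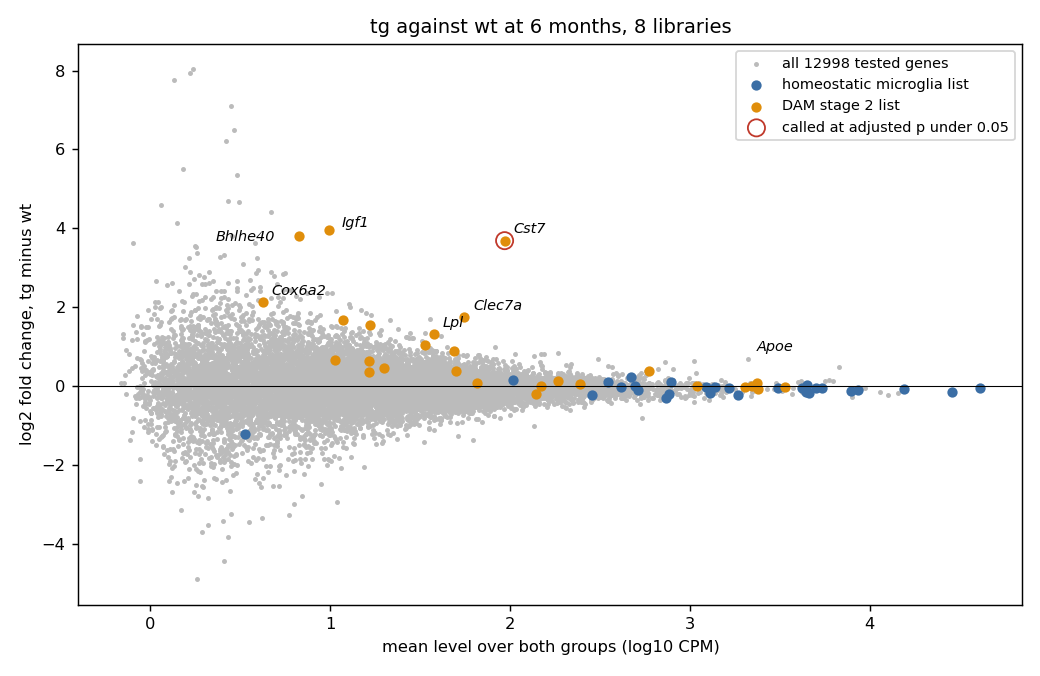
Log2 fold change of tg against wt (vertical axis) by mean level over both groups in log10 CPM (horizontal axis) for the 12998 tested genes in grey, with the DAM stage 2 list in orange, the homeostatic list in blue and the 1 called gene circled. The homeostatic genes lie along 0 at high levels, except Egr1 at −1.22 (−1.28 without wt replicate 3), and Cst7, Igf1 and Bhlhe40 lie above 3.5.

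The regions upstream of the 3 genes with the smallest p, Cst7, Clec7a and Igf1, are shown because PU.1, a macrophage lineage factor encoded by Spi1, is known to bind the letters GAGGAA. Each sequence is the 250 bases before the start of the gene in RefSeq, 5′ to 3′ on the strand of the gene, on build GRCm38.p6, with GAGGAA in capitals. The windows are chr2:150570165-150570414 on the plus strand for Cst7, chr6:129472780-129473029 on the minus strand for Clec7a and chr10:87860861-87861110 on the plus strand for Igf1.
Cst7: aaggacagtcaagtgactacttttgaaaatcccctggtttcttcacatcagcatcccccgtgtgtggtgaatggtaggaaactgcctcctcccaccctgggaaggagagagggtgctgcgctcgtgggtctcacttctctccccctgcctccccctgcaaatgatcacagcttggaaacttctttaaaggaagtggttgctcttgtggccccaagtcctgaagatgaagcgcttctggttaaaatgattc
Clec7a: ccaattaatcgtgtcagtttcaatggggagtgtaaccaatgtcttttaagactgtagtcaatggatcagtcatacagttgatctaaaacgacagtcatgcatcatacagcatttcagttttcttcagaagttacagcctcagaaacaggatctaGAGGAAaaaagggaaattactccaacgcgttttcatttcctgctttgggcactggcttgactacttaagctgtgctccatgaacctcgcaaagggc
Igf1: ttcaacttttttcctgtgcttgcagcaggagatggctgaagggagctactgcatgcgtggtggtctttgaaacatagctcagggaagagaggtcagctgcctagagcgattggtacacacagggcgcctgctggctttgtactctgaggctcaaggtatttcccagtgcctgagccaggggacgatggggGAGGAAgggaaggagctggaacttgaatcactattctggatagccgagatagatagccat
The Clec7a window held GAGGAA once, 96 bases before the start, and the Igf1 window once, 60 bases before it. The Cst7 window held it on neither strand. Only these exact letters were searched, so other forms of the site were not looked for. For Clec7a there were 2 promoter entries, and the first is shown. GAGGAA on either strand was in 7639 of 32851 promoter windows of this length (23.3%), and the E-box CACGTG, a palindrome bound by Bhlhe40, was in 1978 (6.02%) and in none of the 3 shown. Of 68 genes looked up, 45 had a RefSeq promoter entry. Spi1 itself was at 314, 276, 117 and 235 CPM in wt and at 269, 432, 351 and 468 CPM in tg (log2 fold change 0.69, SE 0.27, adjusted p = 0.966, and 0.47 and 0.860 without wt replicate 3). Its groups overlapped, and the lowest value was that of wt replicate 3.

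Was the early DAM stage different? None of its 9 genes passed the test. Apoe, which encodes the lipid carrier apolipoprotein E, was at 2189, 1880, 1129 and 1215 CPM in wt and at 1894, 2709, 2601 and 3168 CPM in tg. Only tg replicate 1 lay within the wt range, and the log2 fold change was 0.69 (SE 0.22, adjusted p = 0.859), or 0.56 without wt replicate 3. Tyrobp, the signalling adaptor of TREM2, was at 949, 803, 1279 and 820 CPM in wt and at 1115, 1101, 1237 and 1404 CPM in tg, with a log2 fold change of 0.33 (SE 0.16, adjusted p = 0.966) and of 0.50 without wt replicate 3, the highest wt library. Of the lysozyme gene Lyz2 and the cathepsin genes Ctsb and Ctsd, which encode enzymes of the phagosome and lysosome, the log2 fold changes were 0.33, 0.16 and 0.12, and 0.19, 0.10 and 0.12 without wt replicate 3. In all, 7 of 9 were higher in tg and 2 lower, with a median of 0.12. Without wt replicate 3 all 9 were higher, with a median of 0.15. The summed level of the 9 genes was 19248 to 20895 CPM in wt and 21634 to 24828 CPM in tg, without overlap. The sums of the DAM stage 2 list overlapped, at 15010 to 19642 CPM in wt and 15352 to 20319 CPM in tg. Neither difference of sums was tested. Trem2 was at 1974, 2092, 2874 and 2279 CPM in wt and at 2462, 2240, 2294 and 2663 CPM in tg. The tg libraries lay within the wt range, whose top was wt replicate 3, and the log2 fold change was 0.07 (SE 0.14, adjusted p = 1), or 0.19 without that library. Of 20 genes of TREM2 and TYROBP signalling, 11 were higher in tg and 9 lower, with a median of 0.02, and without wt replicate 3 they were split evenly. None had an unadjusted p under 0.05, and the smallest after Tyrobp was that of the phospholipase gene Plcg2, at 127 to 238 CPM in wt and 92.1 to 144 CPM in tg.

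The homeostatic genes did not pass the test either. The purinergic receptor gene P2ry12 was at 14520, 15140, 14897 and 19085 CPM in wt and at 21378, 15400, 10305 and 13720 CPM in tg. The tg libraries lay on both sides of the wt libraries and spread over a wider range. Tmem119, a membrane protein gene specific to microglia in the brain, was at 5192 to 6289 CPM in wt and 5092 to 5755 CPM in tg (log2 fold change −0.05, SE 0.11). For Cx3cr1, the fractalkine receptor gene, the log2 fold change was −0.13 (SE 0.12), and for Csf1r, the receptor gene for the survival signal CSF1, it was −0.18 (SE 0.13). The transcription factor gene Mef2c and the Golgi gene Golm1 were at −0.20 and −0.22. Leaving out wt replicate 3 gave log2 fold changes of −0.08 for Tmem119, −0.20 for Cx3cr1, −0.21 for Csf1r, −0.23 for Mef2c and −0.36 for Golm1. Of the 28 genes of the list, all tested, 6 were higher in tg and 22 lower. The median was −0.06, none had an unadjusted p under 0.05 and none was free of overlap. Without wt replicate 3, 12 were higher and 16 lower.

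**Figure D3:**
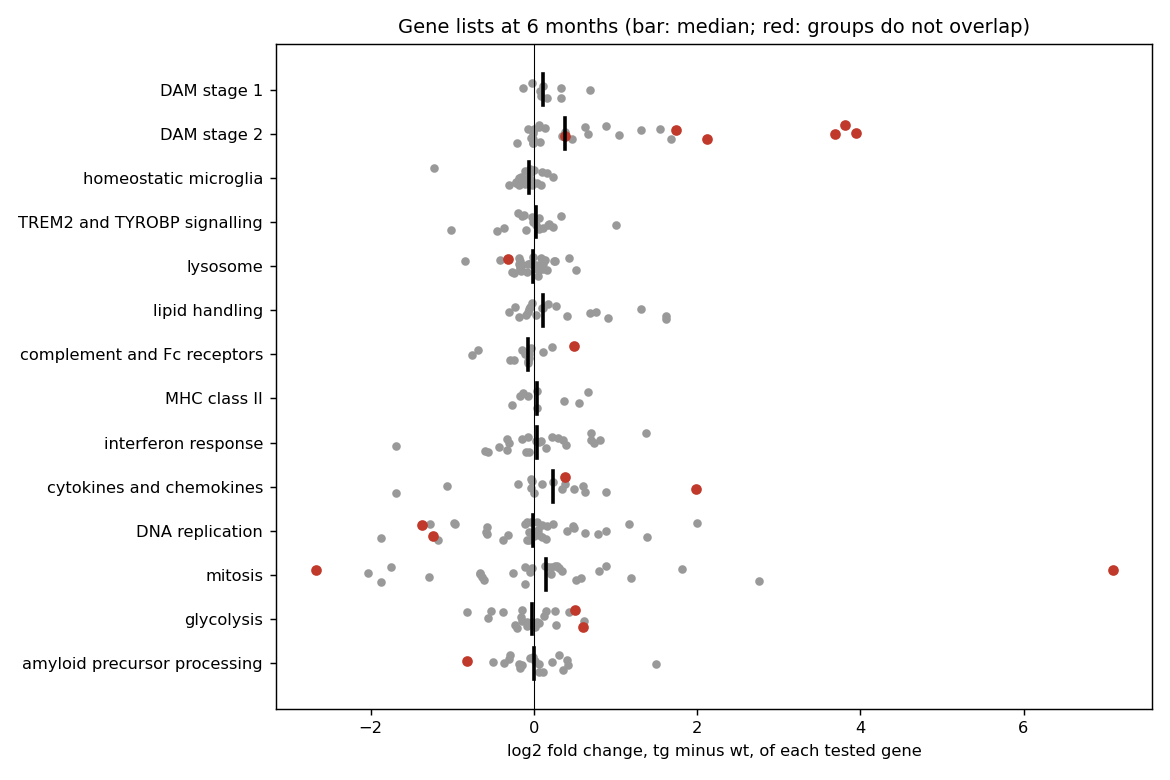
Log2 fold change of tg against wt at 6 months (horizontal axis) for each tested gene of 14 lists (rows), with genes whose groups do not overlap in red and each list's median as a bar. The DAM stage 2 median is 0.38 and the homeostatic median −0.06, and most lists have medians close to 0.

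The complement genes did not share 1 pattern. The C1q complex tags synapses and debris for removal and is made of 3 chains, of which microglia make all. C1qc was at 6432, 5437, 4850 and 5782 CPM in wt and at 6923, 8441, 7648 and 8574 CPM in tg, and the groups did not overlap. Its log2 fold change was 0.49 (SE 0.12, adjusted p = 0.656) and 0.42 without wt replicate 3. The partner chains showed no such gap: C1qa was at 3573, 3552, 4796 and 3373 CPM in wt and at 3318, 3585, 3845 and 3950 CPM in tg, and C1qb was at 8780 to 11393 CPM in wt and 8644 to 9482 CPM in tg. Their log2 fold changes were −0.06 (SE 0.13) and −0.06 (SE 0.11), and without wt replicate 3, their highest wt library, 0.07 and 0.03. The difference between the chains was not tested. Of 16 tested complement and Fc receptor genes, 3 were higher in tg and 13 lower, with a median of −0.07. Without wt replicate 3, 9 were higher and 7 lower.

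Among secreted signals, Osm, which encodes the cytokine oncostatin M, was at 3.53, 0, 8.77 and 8.28 CPM in wt and at 15.3, 20.8, 18.6 and 28 CPM in tg. The groups did not overlap (log2 fold change 1.99, SE 0.53, adjusted p = 0.792, and 2.37 and 0.755 without wt replicate 3). Osm did not reach 1 CPM in all 4 wt libraries, so it passed the filter through its tg libraries. The chemokine genes Ccl3 and Ccl4, which attract monocytes and T cells, differed in size: Ccl3 was at 37.7, 17.5, 37.8 and 43.2 CPM in wt and at 67.6, 38.9, 76.2 and 71.1 CPM in tg, with tg replicate 2 within the wt range. Ccl4 was at 37.8 to 49.5 CPM in wt and 50.7 to 61.8 CPM in tg. Their log2 fold changes were 0.88 (SE 0.31, adjusted p = 0.926) and 0.38 (SE 0.21, adjusted p = 1), or 0.93 and 0.34 without wt replicate 3. The chemokine gene Ccl6 was at 425 to 605 CPM in wt and 574 to 810 CPM in tg. Of 17 tested cytokine and chemokine genes 11 were higher in tg and 6 lower, with a median of 0.23, and without wt replicate 3, 13 were higher and 4 lower. None passed the test, and 9 of the 26 on the list were not tested. In every tg library 2 of the 17 tested genes lay above wt, Ccl4 and Osm, against 1.49% of all genes. Of the 12 that reached 1 CPM in all 4 wt libraries, 1 did, Ccl4, against 1.34% of all genes under that restriction.

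Were genes of proliferation different? Counted by gene, no list of the cell cycle moved in 1 direction. The summed level of the replication list, Fen1 and Mcm6 included, was 911 to 1031 CPM in wt and 833 to 886 CPM in tg. These sums did not overlap, and their difference was not tested. Of 38 tested replication genes, 2 were lower in every tg library, against 1.19% of all genes. Fen1 encodes the flap endonuclease that trims Okazaki fragments. It was at 70.8, 102, 101 and 84.6 CPM in wt and at 45.3, 33.7, 32.4 and 26.7 CPM in tg. The lowest wt library was well above the highest tg library, and the log2 fold change was −1.37 (SE 0.23, adjusted p = 0.212), or −1.31 (adjusted p = 0.716) without wt replicate 3. DESeq2 called it at adjusted p = 3.41e-05, in a range of 3.41e-05 to 1 over the alternatives. The antisense gene Gm10143 overlaps Fen1 in GENCODE M21 and was at 53.3, 89, 77.9 and 69.7 CPM in wt and at 36.4, 30.3, 28.8 and 24.7 CPM in tg. No source used here gives the strand setting of the counting, so reads of the pair cannot be told apart. The same holds for App, P2ry12, Cx3cr1, Csf1r, Ctsb, Ank, Pycard and Tpi1, which each overlap another tested gene on the opposite strand. Mcm6, a subunit gene of the replicative helicase, was at 34.5, 37.1, 40.2 and 38.4 CPM in wt and at 16.9, 20.3, 13.9 and 11.8 CPM in tg (log2 fold change −1.24, SE 0.28, adjusted p = 0.567, and −1.20 and 0.745 without wt replicate 3). DESeq2 called Mcm6 as well, at adjusted p = 0.00814, in a range of 0.00814 to 1. Mcm2, another helicase subunit gene, was at 12.9, 9.28, 31.1 and 8.82 CPM in wt and at 2.18, 5.61, 0 and 8.89 CPM in tg, and its groups overlapped. Of the 38 tested replication genes, 19 were higher in tg and 19 lower, with a median of −0.01, and 4 had an unadjusted p under 0.05 with a lower level (Fen1, Mcm6, Mcm2 and Pola2), against 2.4% of all genes.

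Both Aurora kinase genes, which encode kinases of chromosome segregation, were without overlap, in opposite directions. Among the 30 tested mitosis genes, 1 lay above wt in every tg library and 1 below, against 1.49% and 1.19% of all genes. Aurkb was at 0, 0.113, 0 and 0 CPM in wt and at 2.62, 4.25, 5.19 and 10.2 CPM in tg. It passed the filter through its tg libraries and rests on a single count in wt. Aurka was at 2.91, 1.92, 7.9 and 6.34 CPM in wt and at 1.31, 0, 0 and 1.8 CPM in tg, so both lie at low levels. Aurka passed the filter through its wt libraries. Spc24, a kinetochore gene, was at 0 to 1.36 CPM in wt and 1.31 to 6.19 CPM in tg. It too passed the filter through its tg libraries. Of 30 tested mitosis genes 16 were higher in tg and 14 lower, with a median of 0.15, which was −0.06 without wt replicate 3 and −0.07 without wt replicate 4. For the 11 of them that reached 1 CPM in all 4 wt libraries it was −0.11, where all genes under that restriction had −0.02.

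Glycolytic genes did not differ in 1 direction. Gpi1, the glucose phosphate isomerase gene, was at 50.3, 49.5, 53.3 and 44.6 CPM in wt and at 53.6, 86.6, 80.2 and 79.6 CPM in tg. Tpi1, the triosephosphate isomerase gene, was at 74.6, 90.8, 75.8 and 108 CPM in wt and at 117, 134, 129 and 117 CPM in tg. Neither gene overlapped between the groups, and their log2 fold changes were 0.60 (SE 0.22, adjusted p = 0.939) and 0.51 (SE 0.18, adjusted p = 0.941), or 0.64 and 0.45 without wt replicate 3. They were the 2 of 23 tested glycolytic genes that lay above wt in every tg library, against 1.49% of all genes. Ldha, which makes lactate from pyruvate, was at 120 to 137 CPM in wt and 136 to 193 CPM in tg. Pfkfb3, which encodes an enzyme that sets the level of an activator of glycolysis, was at 92.1 to 158 CPM in wt and 70.7 to 104 CPM in tg. Of 23 genes 11 were higher and 12 lower, with a median of −0.03, and without wt replicate 3, 8 were higher and 15 lower.

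Of 32 tested orthologues of Alzheimer risk genes, 2 were below wt in every tg library and 1 above, against 1.19% and 1.49% of all genes. The sorting receptor gene Sorl1, whose product routes the amyloid precursor protein through endosomes, was at 35.7, 36.2, 27.9 and 28.4 CPM in wt and at 21.2, 20.6, 19.4 and 11.1 CPM in tg (log2 fold change −0.82, SE 0.29, adjusted p = 0.958, and −0.88 without wt replicate 3). Cd33, which encodes an inhibitory sialic acid receptor, was at 445, 464, 347 and 344 CPM in wt and at 338, 312, 267 and 309 CPM in tg (−0.38, SE 0.15, adjusted p = 0.966, and −0.45 without wt replicate 3). Its closest libraries differed by little, with 344 CPM in wt against 338 CPM in tg. Inpp4a, a phosphoinositide phosphatase gene, was at 17.5 to 22.3 CPM in wt and 25.7 to 38.8 CPM in tg. The 32 tested genes of the list were split evenly, 16 higher and 16 lower, and their median was 0.02.

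Lysosome, inflammasome, interferon and antigen presentation lists held no called gene. The lysosomal mannosidase gene Man2b1 was at 732 to 1007 CPM in wt and 634 to 707 CPM in tg, and the inflammasome adaptor gene Pycard at 562 to 622 CPM in wt and 401 to 545 CPM in tg, both without overlap and with log2 fold changes of −0.32 (SE 0.13, adjusted p = 0.966 each), or −0.31 and −0.30 without wt replicate 3. Below wt in every tg library were 1 of 33 lysosomal and 1 of 21 inflammasome genes, against 1.19% of all genes. The unfolded protein sensor gene Atf6 was at 44.6 to 73.8 CPM in wt and 25 to 53.1 CPM in tg. Its list went the other way, with 15 of 23 tested genes higher in tg and 8 lower, and a median of 0.06. In every tg library 2 of the 23 lay above wt, against 1.49% of all genes, and 0 below. Of 33 lysosomal genes 15 were higher and 18 lower, with a median of −0.02, and without wt replicate 3, 22 were higher and 11 lower, with a median of 0.08. The interferon list had 13 higher and 11 lower, with Ifit1, an RNA-binding antiviral gene, at 1.04 to 20.9 CPM in wt and 0 to 4.73 CPM in tg. H2-Ab1, a chain gene of MHC class II, was at 95.6 to 234 CPM in wt and 150 to 330 CPM in tg, and 5 of 9 genes of that class were higher. Of 49 nuclear genes of oxidative phosphorylation, 24 were higher in tg and 25 lower, and without wt replicate 3, 35 were higher and 14 lower, with a median of 0.16.

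Among genes chosen after their values were seen, Baiap2l2, a membrane-bending protein gene, had 0 counts in all 4 wt libraries and was at 3.28, 4.25, 3.5 and 2.7 CPM in tg. Against the mean wt level that 3 counts per library would give, it was at least 10.6-fold higher in tg, and it passed the filter through its tg libraries. Kctd5, an adaptor gene of a ubiquitin ligase, was at 19.2, 11, 14.7 and 23.3 CPM in wt and at 38.3, 80.8, 62.2 and 38.6 CPM in tg (log2 fold change 1.70, SE 0.35, adjusted p = 0.489, and 1.63 without wt replicate 3). The zinc finger genes Zfp141 and Zfp101 were lower in every tg library, at 18.8 to 29.4 against 2.53 to 11.4 CPM and at 10.4 to 15.9 against 3.16 to 4.91 CPM. Zfp78 was at 0, 0.566, 0 and 0 CPM in wt and 3.61 to 8.77 CPM in tg. It passed the filter through its tg libraries. Of 310 tested genes whose symbols start with Zfp and a digit, 5 were above wt in every tg library (1.61%) and 4 below (1.29%), close to the shares over all genes. Of the 225 that reached 1 CPM in all 4 wt libraries, 3 were above, where 1.34% of all genes under that restriction were. Ccdc15, a coiled-coil protein gene, was at 4.26 to 8.34 CPM in wt and 0 to 0.903 CPM in tg, and it passed the filter through its wt libraries.

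Markers of other cells varied between libraries, and no list separated the groups. The choroid plexus list summed to 2975, 1260, 2.71 and 1904 CPM in wt and to 208, 1910, 1695 and 368 CPM in tg. This was the widest range of the lists, with wt replicate 3 lowest. Its defining gene Ttr, which encodes the thyroid hormone carrier transthyretin, was at 1589, 550, 0 and 928 CPM in wt and at 130, 903, 1098 and 256 CPM in tg, and all 8 tested genes of the list were lower in tg, with none at an unadjusted p under 0.05. Oligodendrocyte markers summed to 176 CPM in wt replicate 3 and 536 to 703 CPM in the other wt libraries, with 311 to 688 CPM in tg. The border-associated macrophage list summed to 275 to 359 CPM in wt and 231 to 485 CPM in tg. Of its 13 tested genes 10 were higher in tg, with a median log2 fold change of 0.76, or 0.35 without wt replicate 3. Of the 7 that reached 1 CPM in all 4 wt libraries the median was 0.10. None of these 7 lay above wt in every tg library, where 1.34% of all genes under that restriction did. Of the list, the lectin gene Cd209a was at 7.9, 0, 5.41 and 5.7 CPM in wt and at 22.9, 8.95, 26.4 and 24.9 CPM in tg. The mannose receptor gene Mrc1 was at 26.2, 10.2, 0 and 14.6 CPM in wt and at 15.6, 17.8, 35.1 and 19.7 CPM in tg. Both passed the filter through their tg libraries. The members with the highest levels, Stab1 and Dab2, did not rise as Cd209a and Mrc1 did. Their log2 fold changes were 0.03 and −0.35, or 0.11 and −0.62 without wt replicate 3. Neuron markers summed to 36.9 to 81.1 and 38.2 to 133 CPM, astrocyte markers to 271 to 565 and 412 to 617 CPM, and neutrophil markers to 18.1 to 159 and 41.6 to 140 CPM in wt and tg. The summed markers of every list overlapped between the groups, as the plot of marker sums shows. The part of these cells in the results was not tested.

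**Figure D4:**
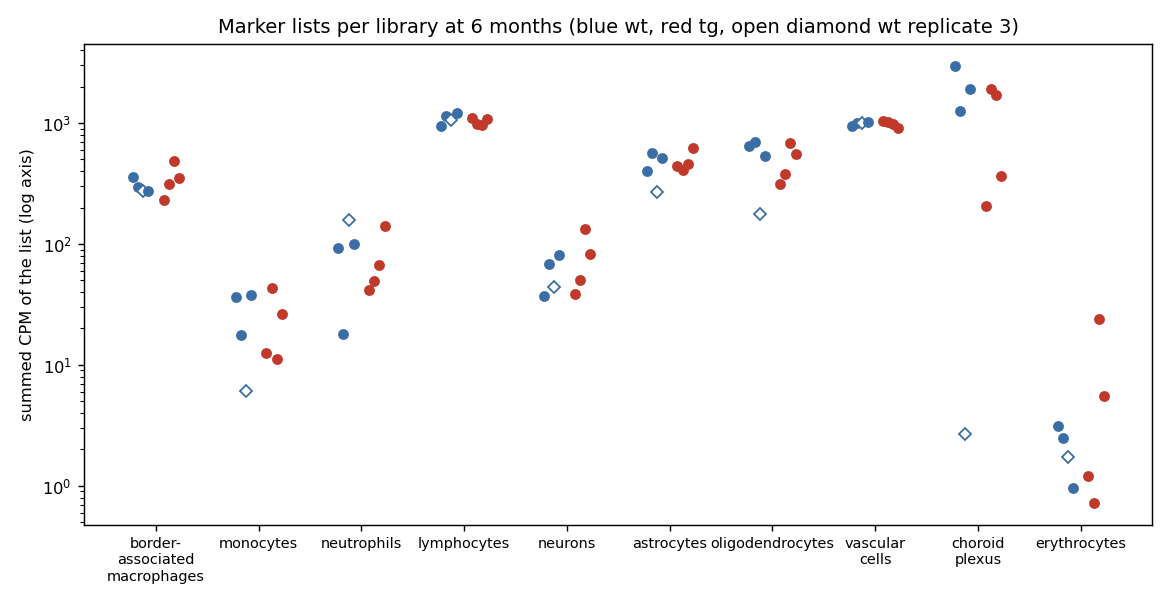
Summed CPM of 10 marker lists in each library at 6 months (vertical axis, log scale), with wt in blue, tg in red and wt replicate 3 as an open diamond. The choroid plexus sum runs from 2.71 CPM in wt replicate 3 to 2975 CPM in wt replicate 1, and the groups overlap in each list.

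Was the genotype difference at 6 months other than that at 4 months? For Cst7 it was larger at 6 months. On a scale shared by 23 libraries of the series, Cst7 was at 12.2, 5.07, 11.8 and 13.4 CPM in wt and at 12.5, 10.7, 12.3 and 15.3 CPM in tg at 4 months. At 6 months the same scale gave 12.3 to 14.1 CPM in wt and 129 to 196 CPM in tg. The groups thus overlapped at 4 months and lay apart at 6 months. The log2 fold change at 6 months was larger than that at 4 months by 3.43 (SE 0.40, adjusted p = 0.00126, edgeR on the 16 libraries of both ages), the only call among 14303 genes (0.00699%). Cst7 was called in 23 of 24 alternatives, each fit that left out 1 of the 16 libraries included. In the fit of all 24 libraries no gene was called, with 696 at an unadjusted p under 0.05 and an adjusted p of 0.996 for Cst7. That fit takes in the 9-month tg library of 6325 counts, which is not on the shared scale, and its part in the result was not tested. DESeq2 on the 16 libraries called 5 genes: Cst7, Peg3, Dynlt3, Taf1a and Psmd14. Clec7a differed in the same direction, at a mean of 16.7 CPM in wt and 22.1 CPM in tg at 4 months and at 25.0 and 84.0 CPM at 6 months, and its difference of 1.35 (SE 0.45) did not pass the test (adjusted p = 0.955). For Igf1 the difference was 4.25 (SE 1.03, adjusted p = 0.791). Its wt libraries were at 1.20 to 4.87 CPM at 4 months and 0 to 3.41 CPM at 6 months. For Fen1 the difference was −1.28 (SE 0.31, adjusted p = 0.791).

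At 9 months 3 tg libraries with enough counts were at 405, 391 and 504 CPM of Cst7, and the wt libraries at 288, 15.9, 29.7 and 11.5 CPM. The wt library at 288 CPM was replicate 1, which was also above the other wt libraries in Clec7a, Lpl and Igf1. Lpl was at 5.28 to 23.9 CPM in wt and 12.6 to 15.2 CPM in tg at 4 months, and at 16.1 to 58.0 CPM in wt and 148 to 180 CPM in tg at 9 months. Fen1 and Mcm6 did not show the 6-month gap at the other ages: Fen1 was at 51.9 to 71.7 CPM in wt and 46.8 to 81.4 CPM in tg at 4 months and at 29.2 to 65.9 and 41.9 to 78.6 CPM at 9 months, and Mcm6 had means of 28.2 CPM in wt and 32.4 CPM in tg at 4 months and of 31.4 and 45.7 CPM at 9 months. The 4- and 9-month libraries were not part of the 6-month test.

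**Figure D5:**
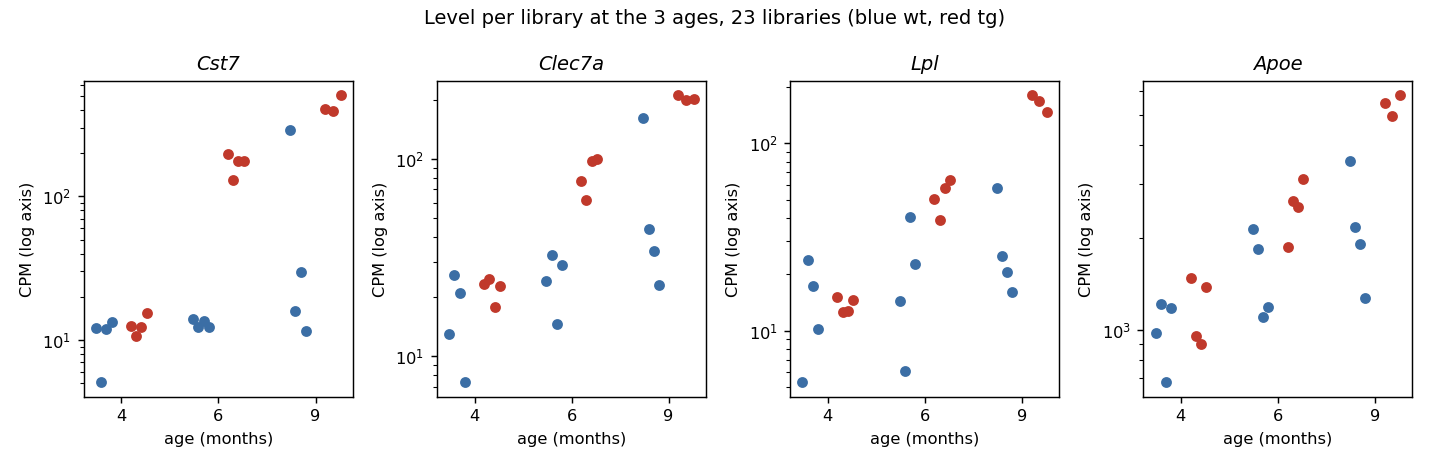
Level of Cst7, Clec7a, Lpl and Apoe in each of 23 libraries (vertical axes, CPM, log scale) at 4, 6 and 9 months (horizontal axes), with wt in blue and tg in red. Cst7 overlaps between the groups at 4 months and lies at 129 to 196 CPM in tg against 12.3 to 14.1 CPM in wt at 6 months, and 1 wt library at 9 months is at 288 CPM.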

How the data were processed

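The deposited tables hold counts of reads per gene and library, made by the authors. Per the submitters' processing notes, FastQC 0.11.9, cutadapt 2.10, TopHat, SAMtools 1.10, Picard 2.13.2, HTSeq 0.11.0 and build GRCm39 were used. No source used here gives the annotation release, strand setting or duplicate handling. The series table (36982 symbols) was used, and its counts equal those of the library files. Groups follow the labels.

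Counts were fitted in R 4.3.3 with edgeR 4.0.16 (TMM, robust quasi-likelihood fit, Benjamini-Hochberg adjustment over all tested genes, threshold 0.05) on the 8 libraries of 6 months, for genes with at least 1 CPM in at least 4 libraries. The difference between ages used the 16 libraries of 4 and 6 months. The SE is the size of the log2 fold change divided by the root of its F statistic. Levels across ages use TMM factors over 23 libraries, without tg 9 months replicate 4, which holds few counts. The alternatives were DESeq2 1.42.0, limma-voom (limma 3.58.1), other scalings and filters, a replicate block and left-out libraries. DESeq2 and limma-voom without wt replicate 3 were chosen after seeing the data. The fit was also run on simulated counts, with the spread of each gene capped at the median spread of these data. That run therefore does not measure the power or error rate of the fit on these libraries. Replicate numbers were treated as names only.

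The comparison, gene lists and tests were chosen with earlier results of these data known. Genes were named by rule: called genes, up to 6 of the DAM, homeostatic and replication lists and up to 3 of the others by smallest p, the highest 2 markers of each other cell type, transgene and sort genes, and the 5 with the smallest p of the difference between ages. A few genes that this rule names are not reported here. P2ry12, Tmem119 and Cx3cr1 are general markers, and Trem2, C1qa, C1qb, Ccl4, Spp1, Ank, Cd33, Inpp4a, Ldha, Mrc1 and Gm10143 were named after their values were seen.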

Additional observations from a re-analysis of the deposited data

Results flagged for a closer look

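In groups of 4, a library was set apart when its gap to the nearest other library, as a share of the group's range, exceeded Dixon's critical value at 95%. Of 159 groups examined, 10 held such a library, and chance alone gives about 1 in 20. The groups include genes chosen after their values were seen, so the 2 figures are not a test. Library wt replicate 3 was at 129.3 on the first principal component, against −24.4 to −18.0 for the other wt libraries. It was known to stand apart in overall profile before this check, so that flag adds no independent evidence. Library wt replicate 3 was also apart for C1qa (4796 CPM, others 3373 to 3573), App (280.2 CPM, others 84.3 to 103) and Zfp101 (10.4 CPM, others 15.4 to 15.9). Other wt libraries apart were replicate 4 for P2ry12 (19085 CPM, others 14520 to 15140) and Mvk, a sterol synthesis gene (2.04 CPM, others 0 to 0.208), and replicate 2 for Aurkb (0.113 CPM, others 0), Zfp78 (0.566 CPM, others 0) and Plcg2 (238 CPM, others 127 to 136). For Aurkb and Zfp78 all other wt libraries were at 0, so any count in 1 library meets the rule, and these flags say nothing about spread. In tg, replicate 3 was apart for C1qb (8644 CPM, others 9369 to 9482). The Cst7 difference between ages, 3.43 on the log2 scale, was also set apart, because the test of the difference itself passed the threshold.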

How the results depend on the processing

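The count of calls at 6 months was 1 under every alternative but DESeq2 (19) and DESeq2 without wt replicate 3 (39). It was 1 in each of the 8 fits that left out a single library. The difference between ages had 1 call except with DESeq2 (5) and with all 24 libraries (0). It was 1 in each of the 16 fits with a single library left out. Replicate numbers did not pair libraries (correlation of deviations −0.07 to 0.02, 0 wt libraries closest to their own number), and with the replicate number as a block the counts were again 1 and 1. Directions turned for uncalled genes with a log2 fold change near 0, and for Ttr, at −0.36 with a large SE of 1.08. Without wt replicate 3, C1qa was at 0.071 by edgeR, 0.071 by DESeq2 and 0.043 by limma-voom, and C1qb at 0.033, 0.033 and 0.041. By limma-voom with all 8 libraries C1qb was at 0.0028 and Ttr at 0.084. With single libraries left out the log2 fold change was −0.11 to 0.62 for App, −0.27 to 0.084 for P2ry12, −0.091 to 0.023 for Tmem119, −0.00084 to 0.19 for Trem2, −0.11 to 0.071 for C1qa, −0.10 to 0.033 for C1qb and −0.83 to 0.28 for Ttr. The cause was not tested. Precision is limited by 4 libraries a group: 3 counts equal 0.271 to 0.339 CPM, and genes near that level rest on few counts.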
